A study of Bos taurus with 29 samples.

Results

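The stored transcriptome of the germinal vesicle (GV) oocyte of cattle was described from 6 single oocytes, GV replicates 1, 2, 3, 4, 6 and 7. Of 29 labelled samples in the series, 22 had a column of values. The 6 were taken where 2 labels agreed, the title (GV) and the treatment (pre maturation). GV replicates 5 and 8 carry the same labels but are not analysed here, and replicate 9 was left out because its title says GV while its treatment label says in vitro maturation. All 6 oocytes carry the genotype label WT and came from donor cattle given follicle stimulating hormone (FSH), whose follicles were aspirated with ultrasound guidance. They were stripped of cumulus cells when collected and received no culture treatment. The other oocytes of the series were matured in culture and are not used here. Age and donor are not given in the labels. The 6 oocytes were therefore counted as 1 sample, every SD below is a spread between single oocytes rather than between animals, and no test was made.

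A fully grown GV oocyte is held in prophase of the first meiotic division, with its nucleus (the germinal vesicle) intact. It has nearly ceased transcription and lives on messenger RNA that it made and stored while it grew. Many of these messages carry short poly(A) tails and are translated only when meiosis resumes, and others are degraded before the embryo switches on its own genes. Products known to be stored in this way include meiotic cyclins and kinases, egg coat proteins and proteins that act on messenger RNA itself.

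Values are read counts scaled to the reads of the library, as CPM. The 6 libraries held 27610555 to 34209674 reads, and 97.2 to 97.5% of them lay in the 13502 genes of the table. A level is thus the share of a library's reads that a gene drew. RNA was captured by its poly(A) tail and read along its whole length, so a long message draws more reads than a short one at equal copy number, and a message with a short tail may be captured less. Gene lengths were not used here, so ranks order genes by their share of reads, not by molecules. Amount of RNA per oocyte and composition of the library cannot be told apart.

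The labelled cell type was checked against marker genes. All 12 oocyte markers had a mean of at least 10 CPM, and 6 of them stood among the 100 genes with the highest means, where 0.741% of all listed genes stand. Together the oocyte markers drew 37270.2 to 51762 CPM per oocyte, and 20169.8 to 24565 CPM without UBB, a gene that all cells use. The list was chosen with earlier results of these data known. The 4 defining markers were all present in every oocyte. UBB ranged from 16034 to 27839.6 CPM with a median of 18378, BTG4 from 7376 to 12339 CPM with a median of 10835, ZP3 from 1530.3 to 3738 CPM with a median of 1589, and GDF9 from 752 to 1045 CPM with a median of 829.

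Follicle cell markers were mostly low. Of 20 cumulus and granulosa markers with a row, 6 had a mean of at least 10 CPM, against 54.8% of all listed genes. Their sum ran from 702 to 1012 CPM, and most of it was STAR, the cholesterol carrier of steroid-making cells, which lay between 547 and 844 CPM (median 616). STAR stood among the 276 highest genes in every oocyte. Its partners in follicle cells did not share that level. CYP11A1, which starts steroid synthesis, had 0.117 to 1.47 CPM, and the FSH receptor FSHR had 0 to 1.13 CPM. Without STAR the sum was 107 to 276 CPM, lowest in replicate 2 and highest in replicate 6. The 6 blood and immune markers with a row summed to 55.2 to 67.9 CPM. The 6 markers of endothelium, theca and stroma summed to 278 to 497 CPM, nearly all from VWF (mean 226 CPM) and KDR (mean 162 CPM), 2 genes named for endothelium. No marker with a row was at 0 in all 6 oocytes. PECAM1, another endothelial marker, had a mean of only 0.162 CPM, and INSL3 of theca cells 0.318 CPM.

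The library was spread over many genes with a steep start. UBB alone took 2.00% of the listed CPM, the 10 highest genes took 8.76%, the 20 highest 12.4%, the 100 highest 24.7% and the 1000 highest 61.7%. In single oocytes the 10 highest genes took 7.46 to 10.8%. The 10 highest genes took the largest share in replicate 2 and the smallest in replicate 7. Of all genes, 565 held 50% of the listed CPM and 3892 held 90%. The number that held 50% lay between 474 in replicate 2 and 646 in replicate 7, so the library of replicate 2 was the most concentrated and that of replicate 7 the most even.

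By mean, 11839 genes lay at 1 CPM or more, 7403 at 10 or more, 2086 at 100 or more and 99 at 1000 or more. Fewer passed in every oocyte: 10532, 6383, 1683 and 63 genes at the same levels. Only 2 listed genes were at 0 in all 6 oocytes, and 760 were at 0 in at least 1. At these depths a count of 0 allows a level of up to 0.0877 to 0.109 CPM, the value of 3 reads, by counting error alone. Of the genes at 1 CPM or more, 140 had the same value as another gene in all 6 oocytes. Such genes may share reads with a near-identical copy, and their own levels are uncertain.

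**Figure D1:**
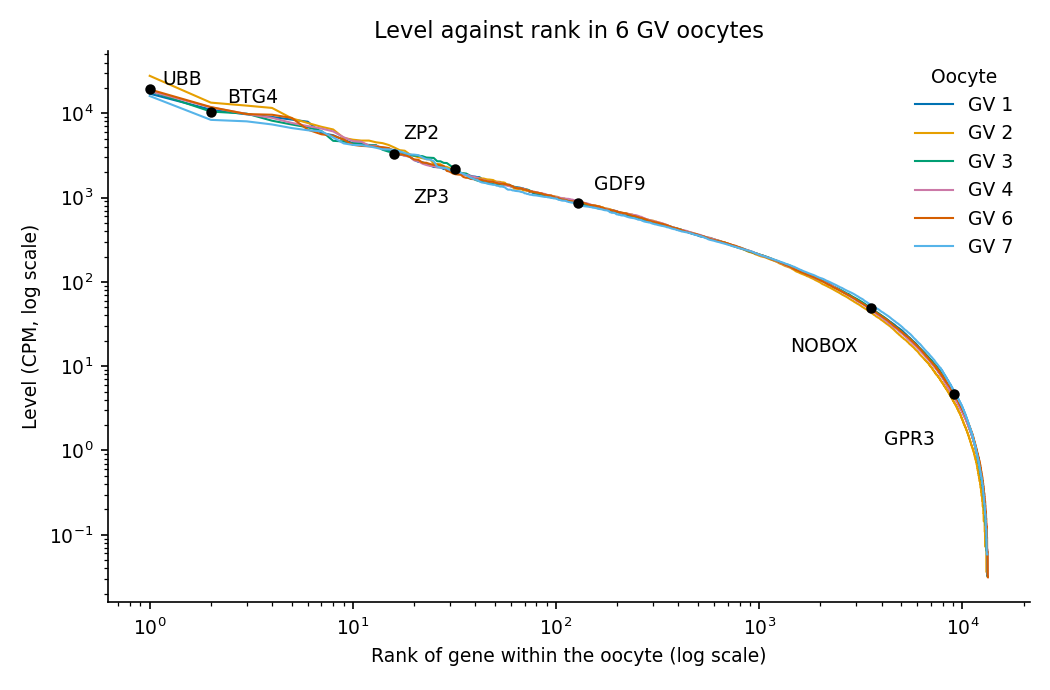
Level of each gene (CPM, log scale) against its rank within the oocyte (log scale), 1 line per GV oocyte; black points mark the mean level and mean rank of 7 named genes. All 6 lines start at UBB, between 16034 and 27839.6 CPM, and stay close together down to low levels.

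The order at the top was shared. UBB was the highest gene in each of the 6 oocytes. Each oocyte's own 100 highest genes included 87 to 92 of the 100 highest by mean, 67 genes were in the 100 highest of every oocyte, and 141 were there in at least 1. All of the 20 highest genes by mean were among the 40 highest of every oocyte. BTG4 and GSTM3 held ranks 2 to 4 and 2 to 3 over the oocytes. Further down, single positions were loose, and GDF9 ranked between 83 and 170.

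UBB encodes a chain of ubiquitin units, the protein tag that marks other proteins for the proteasome. It drew 17100.4 CPM in replicate 1, 27839.6 in replicate 2, 18388 in replicate 3, 18368 in replicate 4, 19195 in replicate 6 and 16034 in replicate 7, a mean of 19488 ± 4241 CPM (SD, n = 6 oocytes). Replicate 2 was well above the other 5, which lay close to each other. Ubiquitin repeats occur in other genes too, so how the counting divides their reads can change the level of UBB.

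BTG4, the adaptor that brings the CCR4-NOT deadenylase to maternal messages, was second. Its levels were 9728, 12339, 9919, 11751, 11863 and 7376 CPM in replicates 1, 2, 3, 4, 6 and 7, a mean of 10496 ± 1871 CPM. Replicate 7 was the lowest. GSTM3, a glutathione transferase, had a mean of 10485 ± 1682 CPM that differed from BTG4's by far less than the spread of either, so the order of this pair is not settled by 6 oocytes. PTTG1, the securin that holds back separase until anaphase, followed with 9044, 11580.4, 8170.4, 8826, 9618 and 8029.8 CPM.

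The next genes joined actin, redox and kinase functions. TMSB4X, the actin monomer binder thymosin beta 4, had 7672 ± 1039.9 CPM. PRDX2, a peroxiredoxin that removes hydrogen peroxide, had 6984 ± 1096 CPM. AURKA, a kinase of the meiotic spindle poles, had 6460.2 ± 348 CPM. The 3 sets of values overlapped: PRDX2 ran from 5641 to 8431 CPM and TMSB4X from 6116 to 8825 CPM, while AURKA kept to 5826 to 6819.6 CPM. AURKA was the steadiest of the 99 genes at 1000 CPM or more, with an SD of 0.08 on the scale of log2(CPM + 1).

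PAIP1, a partner of the poly(A)-binding protein, had a mean of 5299 ± 1086 CPM, and CKS1B, a small subunit of cyclin-dependent kinases, 4708 ± 492 CPM. ID3, an inhibitor of helix-loop-helix transcription factors, had 4393 ± 349 CPM. These neighbours overlapped in their values, and ID3 ranked from 9 to 14 over the oocytes. AKR1B1, an aldo-keto reductase, DYNLL1, a dynein light chain, and SLBP2, an oocyte form of the protein that binds histone messages, had means of 4165, 4143 and 3945 CPM. THAP9, the egg coat gene ZP2, ACCSL, the egg coat gene ZP4, the ferritin chain FTL and FAU, a ubiquitin-like protein fused to a ribosomal protein, were also among the 20 highest, with means from 3674 down to 2927 CPM. ACCSL was the most uneven of the 20, with 5178 CPM in replicate 7 and 2359 to 3754 CPM in the other 5.

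**Figure D2:**
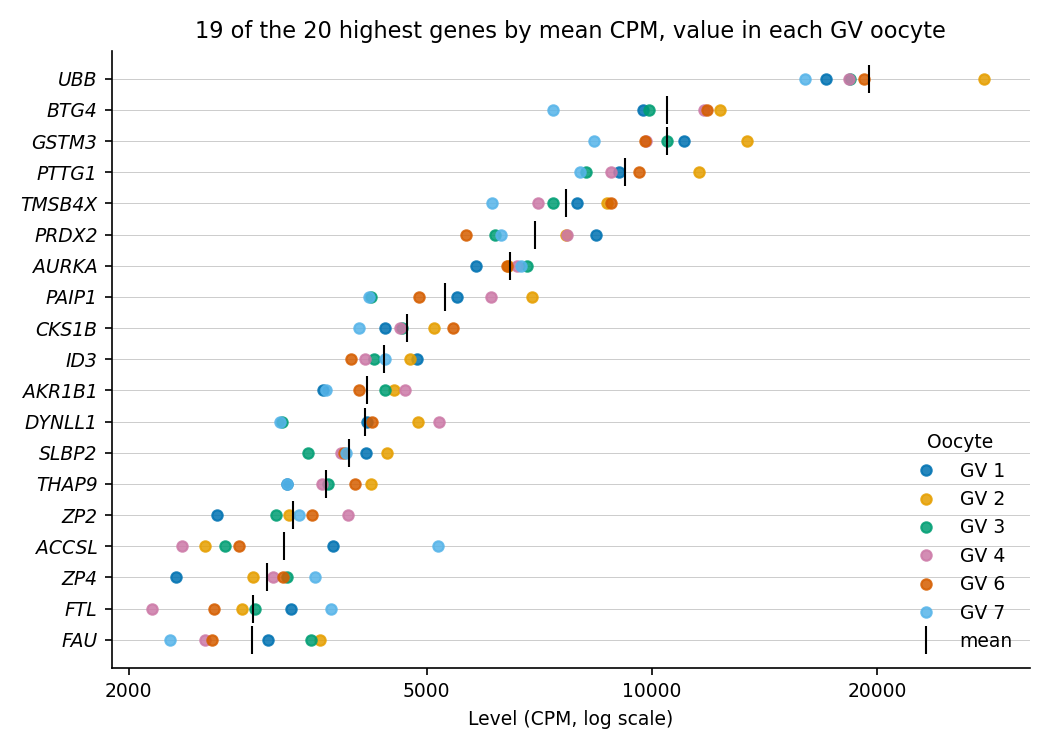
Level (CPM, log scale) of 19 of the 20 genes with the highest mean, in each GV oocyte; coloured points are oocytes and black bars are means. UBB stands apart in all 6 oocytes, the points of most neighbouring genes overlap, and replicate 2 holds the highest UBB value at 27839.6 CPM.

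Egg coat and secreted egg genes formed one of the highest groups for its size. Of 5 members with a row, 4 stood among the 1000 highest genes, where 7.41% of all listed genes stand. The 100 highest, where 0.741% of all stand, also held 4 of them. Together they drew 10454 ± 1372 CPM, lowest in replicate 1 and highest in replicate 7. ZP2, the glycoprotein that sperm bind, had 2623, 3272, 3149, 3933, 3512 and 3374 CPM in replicates 1, 2, 3, 4, 6 and 7. ZP4 had 2309.7 to 3546 CPM (median 3168), and its values overlapped those of ZP2.

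ZP3 split the oocytes. It had 2968 CPM in replicate 3 and 3738 CPM in replicate 7, but 1584, 1573, 1530.3 and 1593 CPM in replicates 1, 2, 4 and 6. No oocyte lay between these sets, and the SD of 0.57 (log2) was among the largest 10% for its level. ASTL, the protease ovastacin that cuts ZP2 after fertilisation, was likewise highest in replicate 7 at 402 CPM, next in replicate 3 at 183 CPM, and at 121 to 164 CPM in the other 4. OOSP2, an oocyte secreted protein, was even in all, from 1499 to 1867 CPM.

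GDF9 and BMP15, growth factors that the oocyte sends to the follicle, led the list of signals between oocyte and follicle. GDF9 had 752, 789, 752, 1019.7, 869 and 1045 CPM, and BMP15 had 598, 542, 573, 841, 809.7 and 899 CPM, in replicates 1, 2, 3, 4, 6 and 7. For both, replicates 4, 6 and 7 were above replicates 1, 2 and 3 without overlap. These were the only 2 of 19 members with a row among the 1000 highest genes (10.5%, against 7.41% of all listed genes), and 11 had a mean of at least 10 CPM (57.9%, against 54.8%). Both shares were near those of all genes. KIT, the receptor for the granulosa signal kit ligand, lay at 31.5 to 54.6 CPM (median 45.1), lowest in replicate 4. INHA and FST passed or neared 10 CPM through a single oocyte and are described below.

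Several oocyte transcription factors were uneven between oocytes. Of 14 members with a row, 1 was among the 1000 highest genes (7.14%, against 7.41% of all) and 9 had at least 10 CPM (64.3%, against 54.8%). The median SD of those at 10 CPM or more was 0.37 (log2), against 0.27 over all 7403 genes at that level. The list's median level was 34.5 CPM, and all genes at 10 to 100 CPM had a median SD of 0.30. Of the 9, 2 had an SD among the largest 10% for their level. FIGLA, which drives the egg coat genes, had 1273 CPM in replicate 3, 676, 746 and 783 CPM in replicates 1, 2 and 7, and 404 and 397 CPM in replicates 4 and 6. NOBOX, a homeobox factor of early follicles, had 26.9 to 71.3 CPM, with its 3 lowest values in replicates 2, 4 and 6. SOHLH2, a helix-loop-helix factor of follicle formation, was nearly constant, at 165 to 185 CPM (SD 0.06, log2). LHX8 and TBPL2, the latter the oocyte's substitute for the TATA-binding protein, had means of 77.1 ± 18.2 and 109 ± 18.6 CPM.

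The subcortical maternal complex is a protein assembly under the egg membrane that early cleavage requires. All 10 members with a row, the NLRP genes included, had at least 10 CPM, against 54.8% of all listed genes. Among the 1000 highest genes were 5 (50%, against 7.41%). KHDC3L was the highest and the most uneven, with 2659, 3654, 4177, 1495, 1555 and 2992 CPM in replicates 1, 2, 3, 4, 6 and 7. Replicates 4 and 6 were far below the other 4, as for FIGLA. KHDC3L had the largest SD (0.62, log2) of the 99 genes at 1000 CPM or more.

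Its partners did not share that split to the same degree. OOEP had 752 to 1074 CPM, NLRP5 106 to 165 CPM and PADI6 148 to 267 CPM. TLE6 had the ZP3 pattern, with 222 and 278 CPM in replicates 3 and 7 and 106 to 140.3 CPM in the other 4. NLRP14 (504 ± 47.8 CPM) and NLRP9 (471 ± 64.6 CPM) were the highest NLRP genes.

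Genes that store messages or control their poly(A) tails were mostly present, a few of them at high rank. Of 34 members with a row, 29 had at least 10 CPM (85.3%, against 54.8% of all listed genes) and 6 were among the 1000 highest genes (17.6%, against 7.41%). Their sum was highest in replicate 7 (8154 CPM) and lowest in replicate 2 (5034 CPM). Of the 29, 14 were highest in replicate 7, where 35.0% of all 7403 genes at that level were highest. With libraries scaled by median-of-ratios size factors, that share of all genes was 23.8%. ZAR1, an oocyte RNA-binding protein needed beyond the zygote, had 1418, 927, 1446, 995, 887 and 2062 CPM in replicates 1, 2, 3, 4, 6 and 7. Its relative ZAR1L (694 to 1515 CPM) also peaked in replicate 7, as did CPEB1 (414 to 918 CPM), which binds the cytoplasmic polyadenylation element, and PABPN1L (631 to 1126 CPM). The cap-binding protein EIF4E went the other way: it was at 572 to 595 CPM in replicates 1, 3 and 7 and at 854 to 929 CPM in replicates 2, 4 and 6. YBX2, DDX4 and DAZL, germ cell RNA-binding proteins, had means of 45.8, 39.8 and 26.5 CPM.

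Among deadenylation and decay genes BTG4 stood alone. It made up most of the list's 11997 CPM, while the enzymes it recruits were far lower in rank: CNOT7 ranked 1892 with 111 ± 15.3 CPM and CNOT6L ranked 3782 with 43.6 ± 4.86 CPM. PARN, a poly(A) ribonuclease outside that complex, was the next highest member at 383 to 562 CPM. BTG4 and PARN were the 2 of 35 members with a row among the 1000 highest genes (5.71%), a share near the 7.41% of all listed genes. NANOS1, a translational repressor, had the largest SD of the list at 0.71 (log2), with 30.2 and 30.7 CPM in replicates 2 and 4 and 111 CPM in replicate 7.

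Meiotic cell cycle genes had the largest sum of the 26 function lists, at 35732 ± 1847 CPM, and one of the steadiest, with the highest oocyte only 1.14 times the lowest. Much of that sum came from PTTG1, AURKA and CKS1B, with means of 9211, 6460 and 4708 CPM. The median over the list's members was 149 CPM. Of 48 members with a row, 9 were among the 100 highest genes, where 0.741% of all listed genes stand. Among the 1000 highest were 21 (43.8%, against 7.41% of all). Both partners of maturation-promoting factor were present: the cyclins CCNB2, at 1547 to 1964 CPM (median 1774), and CCNB1, at 1000.2 to 1458 CPM (median 1335), and the kinase CDK1, at 106 to 174 CPM (median 156). CCNB3, the cyclin of anaphase entry, had 468 ± 37.8 CPM. MOS, the kinase that starts the MAP kinase cascade at maturation, had 1902, 1422, 1934, 1467, 1544 and 1778 CPM, which overlapped the values of CCNB2.

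A brake and a trigger of CDK1 lay apart in rank. WEE2, the oocyte kinase that keeps CDK1 inactive, ranked 229 with 488 to 838 CPM, and CDC25B, a phosphatase that activates it, ranked 3584 with 27.3 to 75.3 CPM. Both were highest in replicate 7, as were 35.0% of all genes at 10 CPM or more. Of the Aurora kinases, AURKC, the germ cell form, had 772 ± 58.1 CPM and AURKB 437 ± 36.9 CPM. PLK1, a kinase of division, was uneven, with 382 CPM in replicate 7 and 139 to 253 CPM in the other 5. TTK, a checkpoint kinase, kept to 92.9 to 111 CPM.

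Few genes of cyclic nucleotide signalling, which keeps the oocyte arrested, stood high in the ranking. Of 26 members with a row, 11 had at least 10 CPM (42.3%, against 54.8% of all listed genes). Among the 1000 highest genes was 1 (3.85%, against 7.41%). Both shares were somewhat below those of all genes, and in a list of this size a few genes make that difference. That highest member was PRKAR1A, a regulatory subunit of protein kinase A, at 216 to 362 CPM. GPR3 and GPR12, receptors that keep cyclic AMP high, had 2.59 to 8.88 CPM and 7.71 to 25.8 CPM. The cyclase ADCY3 had 39.1 ± 5.03 CPM.

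PDE3A, the phosphodiesterase that breaks down cyclic AMP in oocytes, had 10.1, 13.8, 7.59, 7.59, 7.56 and 12.1 CPM in replicates 1, 2, 3, 4, 6 and 7. Its mean rank was 7434. PDE5A, which acts on cyclic GMP, had 29.2 ± 5.74 CPM. GJA4, the connexin of the oocyte's side of the gap junction, had 31.6 to 90.4 CPM, highest in replicate 7. NPR2, the receptor of C-type natriuretic peptide that follicle cells carry, was at 0.491 CPM in replicate 1, 0.526 CPM in replicate 7 and 2.65 to 5.94 CPM in the other 4. Replicate 6 had both the highest NPR2 and the highest sum of follicle markers without STAR, at 276 CPM. The other oocytes did not keep that order. Replicate 7 had the next highest sum (194 CPM) with NPR2 at 0.526 CPM. Replicate 2 had the lowest sum (107 CPM) with NPR2 at 3.51 CPM. The part of attached cells in these values was not tested.

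Proteasome genes were mostly high. Of 47 members, 43 had at least 10 CPM (91.5%, against 54.8% of all listed genes). Among the 1000 highest genes were 18 (38.3%, against 7.41% of all). The median SD of the 43 was 0.20 (log2), against 0.27 for all genes at 10 CPM or more. The list's median level was 165 CPM, and all genes at 100 to 1000 CPM had a median SD of 0.21. The spread was thus near that of other genes of such levels. PSMA5, a core subunit, was the highest at 1163 to 1731 CPM, and PSMC4, a subunit of the cap, varied little at 215 to 248 CPM. RPS27A, a ubiquitin fused to a ribosomal protein, ranked below UBB with 466 ± 85.7 CPM. Of 36 chaperone genes 35 had at least 10 CPM (97.2%, against 54.8% of all listed genes), with HSPA8 first at 1151 ± 127 CPM. CCT7, a chaperonin subunit, had an SD of 0.06 (log2), while the small heat shock protein HSPB1 ran from 3.33 to 24.5 CPM.

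Translation genes were frequent in the upper part of the ranking. All but 1 of 80 cytosolic ribosomal protein genes had at least 10 CPM and 42 were among the 1000 highest genes (52.5%, against 7.41% of all listed genes), while 0 reached the 100 highest. Of 39 translation factors with a row, 17 were among the 1000 highest (43.6%). Of the ribosomal genes RPS4X (816 ± 114 CPM) and RPL18 (808 ± 145 CPM) came first, with overlapping values. Of the 79 ribosomal genes at 10 CPM or more, 36 were highest in replicate 2 and 30 in replicate 1. These shares can be read against all 7403 genes at that level, of which replicate 2 was highest for 10.2% and replicate 1 for 13%. Among translation factors NACA, which shields new protein chains, had 917 to 1437 CPM and EIF4A1, the helicase of initiation, 986 to 1202 CPM. EIF5B, which joins the ribosome subunits, was steady at 821 ± 58.1 CPM, and EIF5A was not, with 36.9 to 131 CPM.

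Nuclear genes for mitochondria were often highest in replicate 1 or replicate 2, depending on the list. All 75 mitochondrial ribosomal protein genes had at least 10 CPM, against 54.8% of all listed genes, and MRPL20 (1352 to 1719.9 CPM) came first. Replicate 1 was the highest oocyte for 25 of them, replicate 2 for 14, and replicates 3 and 7 for 12 each. Of 82 nuclear respiratory chain genes, 80 had at least 10 CPM (97.6%, against 54.8% of all listed genes). Among the 1000 highest were 37 (45.1%, against 7.41%). NDUFA8, a complex I subunit, was first at 973 ± 94.1 CPM. Replicate 2 was the highest oocyte for 34 of the 80 at 10 CPM or more and replicate 1 for 16. Over all 7403 genes at that level, replicate 1 was highest for 13% and replicate 2 for 10.2%.

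In the mitochondrial genome replicate 1 stood out. Its 13 protein genes summed to 4493 CPM in replicate 1, 3300.0 in replicate 2, 2377 in replicate 3, 2277 in replicate 4, 2380.4 in replicate 6 and 2666 in replicate 7. Replicate 1 was highest for 9 of the 11 genes at 10 CPM or more, and for 13% of all 7403 genes at that level. The median SD of the 11 genes, 0.45 (log2), was above the 0.27 of all genes at that level. COX3 had 1280.3 CPM and COX1 1009 CPM in replicate 1, against lowest values of 466 and 314 CPM, both in replicate 3. CYTB had 395 to 730.2 CPM. ND4L and ATP8, which overlap their neighbours on the mitochondrial DNA, had means of only 8.73 and 7.30 CPM; how the counting divides reads of overlapping genes is not given in the sources used here.

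Histone storage genes were high while most histones were low. Of 61 members, 26 had at least 10 CPM (42.6%, against 54.8% of all listed genes). Among the 100 highest genes, where 0.741% of all listed genes stand, were 5 members. Those were SLBP2, the oocyte linker histone H1-8 (2312 ± 380.2 CPM), the histone H2BK1 (1446 to 3376 CPM), the storage chaperone NPM2 (1753 ± 227 CPM) and H3-3B (1054 ± 98.9 CPM), a gene of the replacement histone H3.3. The somatic form SLBP ranked 747 with 175 to 359 CPM and SLBP2 had 3472 to 4425 CPM. Messages of replication-dependent histones end without poly(A) in most cells, so a library primed on poly(A) may not measure them well, and near-identical copies may share reads.

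Chromatin and repair genes held a few high members. DPPA3, which protects the maternal genome's methylation state in the zygote, had 1748, 1615, 1410.3, 1864, 1719.7 and 1352 CPM in replicates 1, 2, 3, 4, 6 and 7. It was the only 1 of 27 members with a row among the 100 highest genes, where 0.741% of all listed genes stand. The maintenance methyltransferase DNMT1 had 194 to 242 CPM, and DNMT3A, which writes new methylation during growth, 8.89 ± 2.13 CPM. Of 35 repair genes with a row, 6 were among the 1000 highest (17.1%, against 7.41% of all listed genes). PCNA, the replication clamp, had 796 to 978 CPM.

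Cytoskeleton genes were frequent among the highest genes, and 2 fertilisation genes stood there too. Of 13 fertilisation and egg calcium genes 8 had at least 10 CPM (61.5%, against 54.8% of all listed genes) and 2 were among the 1000 highest (15.4%, against 7.41%), WEE2 and CD81, a membrane tetraspanin at 237 to 462 CPM. IZUMO1R, the egg's receptor for sperm, had 123, 70.3, 176, 137, 109.7 and 229 CPM in replicates 1, 2, 3, 4, 6 and 7, highest in replicates 7 and 3 like ZP3. CD9, a tetraspanin needed for fusion with sperm, had 40.9 CPM in replicate 6, 32.9 CPM in replicate 4 and at most 20.5 CPM in the other 4. Of 31 cytoskeleton genes with a row, 11 were among the 1000 highest (35.5%) and 4 among the 100 highest, where 0.741% of all genes stand: TMSB4X, the membrane linker EZR (1390.1 ± 156 CPM), the tubulin TUBA1B (1334 ± 110.2 CPM) and TMSB10 (1051 ± 198 CPM). TUBA1C, another tubulin, was uneven at 330.1 to 934 CPM, highest in replicate 4.

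Antioxidant genes drew 24187 ± 2605 CPM, most of it GSTM3 and PRDX2. PRDX1 was steady at 1784 to 2072 CPM, and GPX4, which reduces lipid peroxides, had 1380.5, 1038, 1142, 1163, 906 and 941 CPM. Other members of the list were among the most uneven genes measured. PRDX6 ran over 77.9, 90.6, 169, 209.7, 417 and 58.0 CPM, highest in replicate 6 and lowest in replicate 7. TXNIP, an inhibitor of thioredoxin, had 16.2 to 103 CPM, also highest in replicate 6, whereas GPX1 had 76.7 CPM in replicate 1 and 18.4 to 37.4 CPM in the other 5.

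Energy and lipid genes were led by a pair of glycolytic enzymes and a fatty acid carrier. GAPDH had 613 to 1586 CPM (median 1056) and LDHA, lactate dehydrogenase, 785 to 1431 CPM (median 888), with overlapping values. FABP3, a fatty acid binding protein, had 1086 ± 143 CPM. PLIN2, a coat protein of lipid droplets, was at 695 and 692 CPM in replicates 4 and 6 and at 419 to 456 CPM in the other 4. Of 23 apoptosis genes with a row, 14 had at least 10 CPM (60.9%) and 1 was among the 1000 highest genes (4.35%), near the 54.8% and 7.41% of all listed genes. That member, the executioner caspase CASP6, had 394 to 610.1 CPM, highest in replicates 4 and 6. FABP5 (814 ± 136 CPM), another fatty acid binding protein, was the second of the lipid list, of which 18 of 28 members with a row had at least 10 CPM (64.3%).

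**Figure D3:**
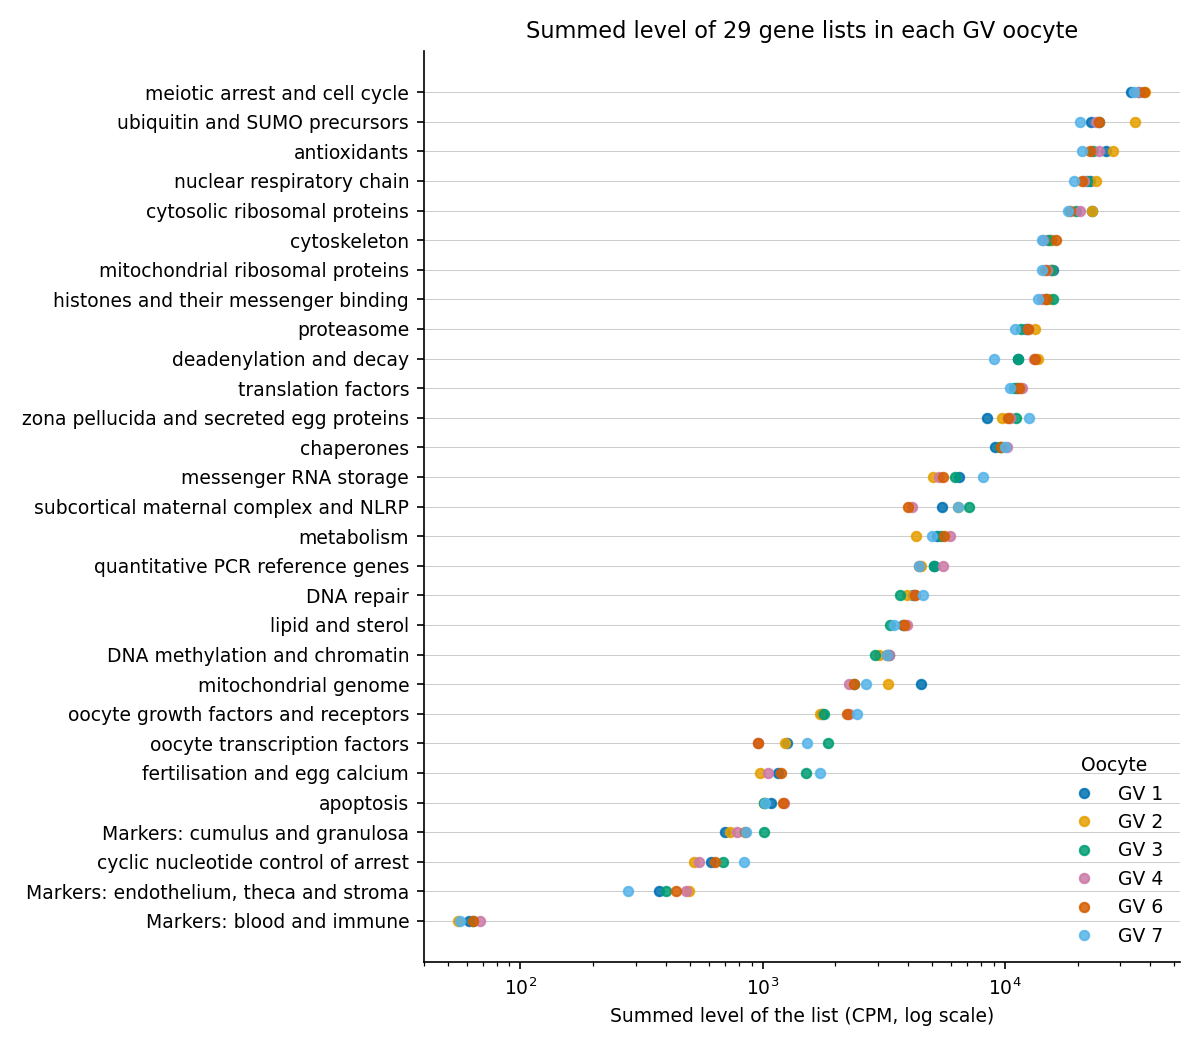
Summed level (CPM, log scale) of 29 gene lists in each GV oocyte, ordered by mean; the oocyte marker list is not drawn. Meiotic cell cycle genes lie at the top with points close together, and markers of blood and of endothelium, theca and stroma lie at the bottom; points of the mitochondrial genome spread from 2277 to 4493 CPM.

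The spread between oocytes was larger than counting error at every level. For the 7403 genes with a mean of at least 10 CPM, the median SD of log2(CPM + 1) was 0.27, and counting error alone gave 0.039. Counting error leaves out the noise of capturing and amplifying RNA from 1 cell, which cannot be told apart here from differences between oocytes. The median SD was 0.43 for genes at 1 to 10 CPM, 0.30 at 10 to 100, 0.21 at 100 to 1000 and 0.21 at 1000 or more. The median did not fall further above 100 CPM. The median coefficient of variation of the 7403 genes was 19.2%. In 28.4% of the 7403 genes (2102) the highest oocyte was at least 2-fold above the lowest, and in 2.58% (191) at least 4-fold. Without replicate 7 the 2-fold count was 1303.

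**Figure D4:**
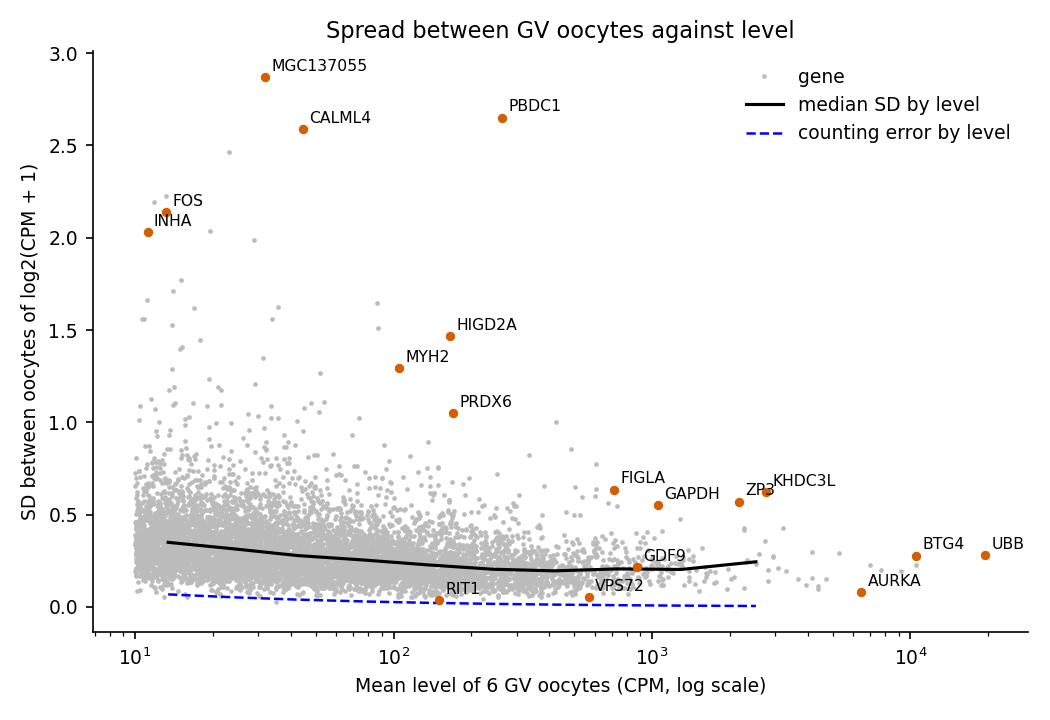
SD between the 6 GV oocytes of log2(CPM + 1) against mean level (CPM, log scale) for 7403 genes; grey points are genes, the black line is the median by level, the dashed line is counting error and orange points are named genes. AURKA lies far below the line for its level, ZP3 and KHDC3L above it, and MGC137055 and PBDC1 are among the highest points.

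The most even genes were not the usual internal references. Among genes at 10 CPM or more, ABT1 had 34.1 to 35.8 CPM in the 6 oocytes. Its SD of 0.025 (log2) lay below its counting error of 0.043, so the reads cannot show it to be that even. Among genes at 100 CPM or more, RIT1, a small GTPase, had 145 to 157 CPM, VPS72, a chromatin protein, 549 to 608 CPM, and RBMX2, a splicing factor, 239.8 to 263 CPM. AARSD1 (212 to 233 CPM) and EPRS1, which charges transfer RNA with glutamate and proline (109 to 120.4 CPM), were close to them. All had an SD of 0.06 or less (log2). They are the extremes of many genes and describe only these oocytes.

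Genes often used as internal references in quantitative PCR differed in steadiness. RPS18 (151 to 189 CPM) and EEF1A1 (461 to 591 CPM) had the smallest SDs of 21 such genes, 0.13 and 0.14 (log2). PPIA had 0.23, YWHAZ 0.25, ACTB 0.32 and SDHA 0.41. GAPDH and H2AZ1 had the largest SDs, both 0.55. GAPDH had 1241, 613, 1338, 1586, 871 and 698 CPM in replicates 1, 2, 3, 4, 6 and 7. Only 2.02% of the 99 genes at 1000 CPM or more had a larger SD than GAPDH. H2AZ1, a reference gene in cattle embryos, had only 1.31 to 4.22 CPM, and adding 1 before the log2 narrows the spread at so low a level. Its coefficient of variation was 43.1%, above the 36.7% of GAPDH.

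The oocytes were much alike as wholes but did not differ evenly. Over all listed genes Spearman's rho between pairs of oocytes was 0.959 to 0.979 across 15 pairs, a description across genes that share libraries. Replicates 4 and 6 were the closest pair by fold, with 96 of the 7403 genes 2-fold apart, and replicates 2 and 7 the farthest, with 893. Replicate 7 was the highest oocyte for 35.0% of the genes and replicate 2 the lowest for 27.1%, where an even division gives 16.7%. With libraries scaled by median-of-ratios size factors, which were 0.894 to 1.095 times the library total, replicate 7 was highest for 23.8%. Replicate 2 also had the most concentrated library and the fewest genes at 1 CPM or more (11311, against 11682 to 11798 in the others); the part of this in single gene values was not tested.

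Some genes were present in some oocytes and all but missing from others. A step of at least 4-fold between neighbouring oocytes, on the scale of log2(CPM + 1), was found in 22 genes, 0.297% of the 7403, and 13 of them had a step of at least 8-fold. MGC137055 had 51.2, 40.5, 53.2 and 45.7 CPM in replicates 1, 2, 3 and 7, but 0.0672 CPM in replicate 4 and 0 in replicate 6. SMIM15, a small membrane protein, had the same division, with 0.202 and 0.406 CPM in replicates 4 and 6 and 29.5 to 37.8 CPM in the others. GML was near 0 only in replicate 6, at 0.250 CPM against 21.6 to 44.0 CPM in the other 5.

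Other divisions also recurred. PBDC1 was at 3.17 CPM in replicate 1, 68.8 in replicate 7, 159 in replicate 3 and 413 to 506 CPM in replicates 2, 4 and 6. CALML4, a calmodulin-like gene, had the same order of oocytes, with 0.622, 3.57 and 4.72 CPM in replicates 1, 7 and 3 and 44.9, 72.7 and 142 CPM in replicates 4, 6 and 2. Its mean of 44.7 CPM falls to 25.3 without replicate 2. LOC784305 was at 0 in replicate 1 and 0.0877 CPM in replicate 7, and at 10.7 to 38.1 CPM in the other 4; its mean of 13.2 CPM was 8.24 without replicate 4. LRRC17 had 0.720 and 1.23 CPM in those 2 oocytes and 14.9 to 50.7 CPM elsewhere.

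For some genes a single oocyte lay far from the other 5. The gap of the highest or lowest oocyte to its nearest neighbour was above the 95% value of Dixon's ratio in 337 of the 7403 genes (4.55%), and chance flags about 1 in 20. The genes below were picked for the size of their gap. HIGD2A, a mitochondrial inner membrane protein, had 15.5 CPM in replicate 3 and 169.5 to 244 CPM in the other 5. In replicate 2, PLG, plasminogen, was at 0 and APEX2, a DNA repair nuclease, at 2.06 CPM, against 10.3 to 28.6 and 23.8 to 62.7 CPM in the other 5. DHPS, which makes the hypusine of EIF5A, was also low in replicate 2, at 131 CPM against 484 to 624 CPM. EXOC3L4 was high only in replicate 3, at 62.1 CPM, and its mean of 11.9 CPM was 1.82 without that oocyte.

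**Figure D5:**
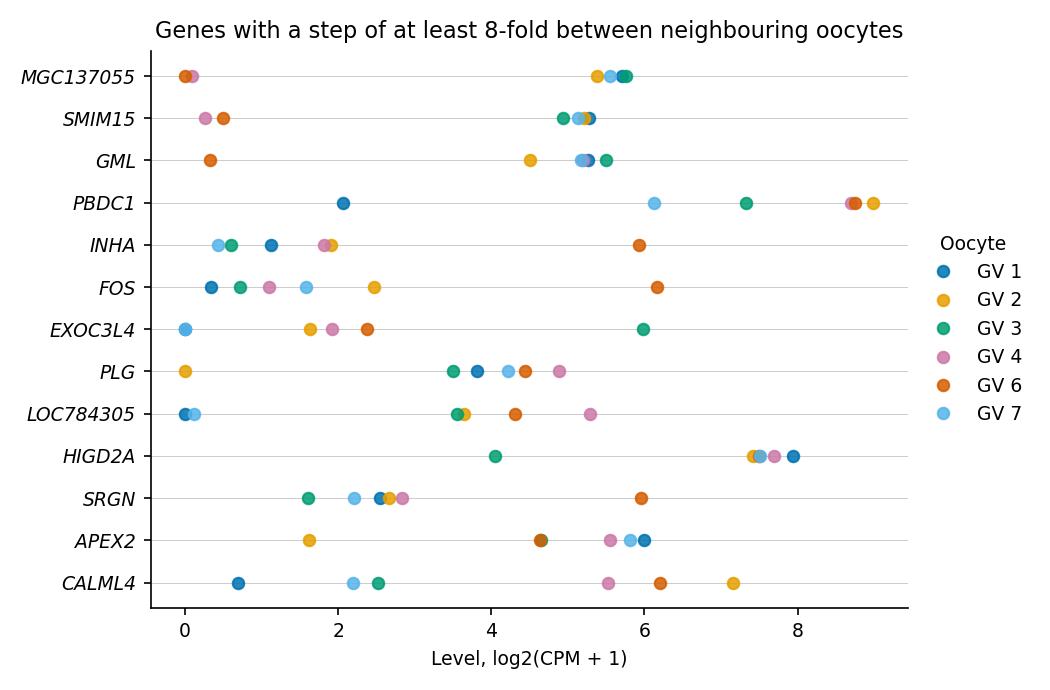
Level, as log2(CPM + 1), of the 13 genes with a step of at least 8-fold between neighbouring oocytes; coloured points are the 6 GV oocytes. MGC137055 and SMIM15 fall near 0 in replicates 4 and 6, and INHA, FOS and SRGN stand high in replicate 6 alone.

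A set of genes of follicle cells and early response was high in replicate 6 alone. INHA, the inhibin alpha chain of granulosa cells, had 59.7 CPM there and 0.351 to 2.75 CPM in the other 5, and its mean of 11.2 CPM was 1.46 without that oocyte. FST, follistatin, had 42.0 against 0.327 to 1.55 CPM, and INHBA, an activin chain, 12.2 against 0.129 to 1.28 CPM. The immediate early genes FOS and EGR1 had 70.4 and 43.4 CPM there, and at most 4.53 and 6.27 CPM elsewhere. SRGN, a proteoglycan of secretory granules, had 61.3 against 2.04 to 6.11 CPM. Means without replicate 6 were 0.856 CPM for FST, 0.708 for INHBA, 1.71 for FOS, 3.01 for EGR1 and 4.40 for SRGN.

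Several follicle cell markers were highest in that oocyte, FST and INHBA of the set above among them. Without STAR the list summed to 276 CPM in replicate 6 and to 107 to 194 CPM in the others. Of that 276 CPM, FST drew 42.0 and INHBA 12.2, so the sum is not separate from the set above. Of the list's 19 members with a row, 9 were highest in replicate 6, FST and INHBA included. Replicates 3 and 4 were highest for 3 each, and replicates 1 and 7 for 2 each. Of all genes with a mean of at least 10 CPM, 14.9% were highest in replicate 6, but most list members lay below that level. Of the 6 members at that level, STAR included, 3 were highest in replicate 6, 2 in replicate 4 and 1 in replicate 3. The markers named next are among the 9. SERPINE2, a protease inhibitor of granulosa cells, was at 74.9 CPM in replicate 6 and 23.1 to 65.0 CPM in the other 5. VCAN, a proteoglycan of the cumulus matrix, was at 41.9 CPM in replicate 6 and 23.8 to 38.0 CPM in the others. CYP11A1 was at 1.47 CPM and FSHR at 1.13 CPM in replicate 6, and their means were 0.316 and 0.160 CPM without it. Whether attached cells carried these messages was not tested.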

How the data were processed

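Messenger RNA of single GV oocytes was measured with the SMART-Seq v4 kit and Nextera XT libraries read as pairs on a HiSeq X, per the labels' protocols. Per the submitters' processing notes the tools were HISAT2 2.2.1, featureCounts 2.0.1, Trim Galore 0.6.7, edgeR and FastQC (roles not given); the notes also name a mouse build, while the gene names are cattle symbols: 13356 of 13502 are current symbols of the RefSeq cattle table, 41 older and 105 without a match. No coordinates or lengths were used.

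The table the authors deposited is named for TPM but its values are CPM: every value of a library is a whole number of reads (100% within 0.01 read) times 1 step that all its genes share. Columns were matched by the name in each sample's description, and no column of values was left over. Means, ranks, SDs of log2(CPM + 1) and Dixon's ratio were computed with Python 3.11.15, numpy 2.4.6 and pandas 2.3.3, and the spread steps were tested on simulated data. Spread was described for genes with a mean of at least 10 CPM. Counting error came from the recovered reads, and intervals and floors cover counting error only. No 2 libraries were copies (smallest chi-square per degree of freedom 38.0, over genes with at least 20 reads).

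The oocytes and the 30 gene lists (26 of function, 4 of markers) were chosen with earlier results of these data known. Named genes came from a rule: the 20 highest, the 10 with the largest and smallest SD at 10 CPM and the 10 smallest at 100 CPM, per list the 3 highest and the 2 with the largest SD, and some whatever their values. The rule's part on levels per length was not run. Of 154 genes named, 45 fall outside it and were chosen after their values were seen, and of the genes the rule took, those printed were also picked afterwards. A few genes, 1 of the 20 highest among them, are not reported here.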

Additional observations from a re-analysis of the deposited data

Results flagged for a closer look

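In groups of 6 values, a value was listed here when its gap to the nearest other oocyte, divided by the whole range, was above 0.625 on the log2(CPM + 1) scale for genes and list sums, and on the plain scale for shares and counts of genes. Chance flags about 1 in 20 groups. Of the 7403 genes with a mean of at least 10 CPM, 337 (4.55%) met this, with replicate 7 high for 73 and low for 38 and replicate 2 high for 18 and low for 72. Of 154 genes named in the text, 17 did; several were chosen for their spread.

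Among the values in the text, replicate 2 was listed for the following. Its UBB value of 27839.6 CPM was above the other 5, and so were the summed ubiquitin and SUMO precursors at 34411 CPM and the share of its highest gene at 2.86%. It was low for PLG (0 CPM), APEX2 (2.06 CPM), DHPS (131 CPM) and ADCY3 (29.2 CPM), and had the fewest genes at 1 CPM or more (11311). Replicate 6 was high for INHA (59.7 CPM), FOS (70.4 CPM), FST (42.0 CPM), INHBA (12.2 CPM) and SRGN (61.3 CPM), and low for GML (0.250 CPM).

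Replicate 7 was high for ASTL (402 CPM) and SDHA (48.7 CPM). Replicate 1 was high for TMSB10 (1444 CPM). Replicate 4 was low for KIT (31.5 CPM). Replicate 3 was low for HIGD2A (15.5 CPM) and, within a narrow range, for EPRS1 (109 CPM).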

How the results depend on the processing

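No paired analysis was possible because only 1 group of oocytes was described and no groups were compared. Levels per kb of length were not run, since no transcript lengths for the table's gene models were used here. Leaving out each oocyte in turn, the number of genes with a 2-fold range lay between 1303 and 1930 (2102 with all 6; 1303 without replicate 7). That number was 5677 for genes with a mean of at least 1 CPM and 216 at 100 CPM or more, and genes flagged by Dixon's ratio rose from 337 to 586 at 1 CPM or more.

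Including GV replicate 9 moved most measures of spread: 5296 genes then had a 2-fold range, the median SD (log2) was 0.47, Dixon's ratio flagged 2684 genes, replicate 7 was highest for 18.5% of genes, and blood and immune markers summed to 69.8 CPM. The other 146 recomputed values stayed within 1.5 times the value given, or for shares and sums within 1 SD between oocytes, a bound that a mean without 1 oocyte cannot leave. A value could still change inside 1.5 times. With replicate 9, the lowest overlap of an oocyte's 100 highest genes with those of the mean fell from 87 to 64. Of 225 gene levels, 39 moved by more than 1 SD with replicate 9. Leaving out 1 oocyte moved the means of 11 genes named in the text by over 1.5 times, 8 of them through replicate 6, and the text gives each mean without that oocyte. Ranks here follow reads, not molecules, and 6 oocytes from an unknown number of animals cannot show the spread between animals.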

Other observations

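GV replicate 9, whose title and treatment label differ, had 36698324 reads and is given as values only. It had 9381 genes at 1 CPM or more, against 11311 to 11798 in the 6 oocytes. UBB was at 21763 CPM in it, BTG4 at 5675, PTTG1 at 1301, ZP3 at 8420.4, GDF9 at 514 and MOS at 4283 CPM. FTL was at 11198 CPM, and DAZL and PDE3A were at 0.218 and 0.0272 CPM. UBB, GDF9 and STAR (740.4 CPM) can be set beside ranges of 16034 to 27839.6, 752 to 1045 and 547 to 844 CPM in the 6.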
